A study of Mus with 9 samples.

Results

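The 9 genes described here code for the coactivators and transcription factors that are known to drive the formation of mitochondria. They are Ppargc1a, Ppargc1b, Pprc1, Nrf1, Gabpa, Tfam, Tfb1m, Tfb2m and Polrmt, and they were chosen by gene symbol out of 54532 genes in the deposited table. The rule uses the symbols and no measured value. Kidney RNA of 9 male C57BL/6 mice was sequenced, 3 mice per group, and the groups were named 18 mo, 21 mo and 21 mo/O304. All 9 mice had undergone unilateral nephrectomy at 18 months of age. Tissue was collected when the mice were killed, so each library is taken here to come from the kidney that was left. The mice of the 18 mo group were killed 1 week after surgery. Mice of the 21 mo group were given saline intraperitoneally for 12 weeks, and those of the 21 mo/O304 group were given O304, an activator of the energy-sensing kinase AMPK, at 10 mg/kg/day over the same 12 weeks. Because of this, age, weeks since surgery and the injections cannot be told apart between the 18 mo group and the others, and no mice of a sham operation are among the libraries.

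The members of the PGC-1 family (PGC-1α from Ppargc1a, PGC-1β from Ppargc1b and PRC from Pprc1) do not bind DNA themselves. They are recruited by DNA-binding factors, among them NRF-1 (Nrf1) and NRF-2, whose DNA-binding subunit is coded by Gabpa, and by the oestrogen-related receptors. NRF-1 and NRF-2 are known to act on nuclear genes of the respiratory chain and on those of the machinery that transcribes mitochondrial DNA, which consists of the DNA-packaging factor TFAM, the initiation factor TFB2M and the RNA polymerase POLRMT. TFB1M, a relative of TFB2M, methylates the RNA of the small mitochondrial ribosomal subunit. The proximal tubule is among the cell types richest in mitochondria, and AMPK is a known activator of PGC-1α.

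The counts on genes summed to between 15636378 and 18396725 per library, so that 1 count was worth between 0.0544 and 0.0640 CPM, the counts scaled to a common library size. Markers of the proximal tubule were abundant, which fits the labelled tissue, but they were unequal between the libraries of the 21 mo group. The 10 proximal tubule markers summed to 15470 CPM in replicate 1 of the 21 mo group, 7768 in replicate 2 and 2077 in replicate 3, against 14194 to 17880 at 18 mo and 15749 to 16395 under O304. The 6 fibroblast markers ran the opposite way, at 130.1, 552 and 1307 CPM in the same 3 libraries and between 100.2 and 243 in the others. The 10 leukocyte markers summed to 657 to 998 CPM at 18 mo, 1147 to 2173 at 21 mo and 999.9 to 1738 under O304, and the 5 endothelial markers to 181 to 298, 151 to 255 and 223 to 411 CPM. The 10 markers of thick limb, distal tubule and collecting duct summed to 8368, 4101 and 4270 CPM in 18 mo replicates 1 to 3. They summed to 7204, 6772 and 3428 CPM at 21 mo and to 5243, 3660 and 3189 CPM under O304. The 5 podocyte markers summed to 200 to 290 CPM at 18 mo, 199 to 591 at 21 mo and 216 to 371 under O304. These are bulk samples, in which fewer cells of a type and less RNA per cell cannot be told apart. The 21 mo libraries therefore stood apart from each other, and for the main differences the value without single replicates of that group is given beside the value from all libraries.

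All 9 genes passed the filter on low counts, and they fell into an abundant and a scarce class. Levels of different genes were compared in FPKM, which corrects for gene length. Over all 9 libraries the mean FPKM was 12.9 for Tfb2m, 11.7 for Tfam, 8.64 for Gabpa, 8.55 for Ppargc1a and 7.91 for Polrmt. The other 4 genes were lower, with a mean of 1.97 for Pprc1, 1.84 for Tfb1m, 1.84 for Nrf1 and 1.73 for Ppargc1b. The lowest value of Polrmt, 5.32 FPKM in replicate 3 of the 21 mo group, still lay above the highest value of Pprc1, 2.92 FPKM, and in 9 of 9 libraries Polrmt was above Pprc1. Within a class the range of each gene over the 9 libraries overlapped that of the next one down. Compared library by library, Tfam was above Gabpa in 8 of 9, and the other neighbours kept their order in 5 or 6. Both classes held members of the same family: Ppargc1a was abundant and Ppargc1b and Pprc1 were scarce, and Tfb2m stood at the top of the order while Tfb1m stood near the bottom.

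**Figure D1:**
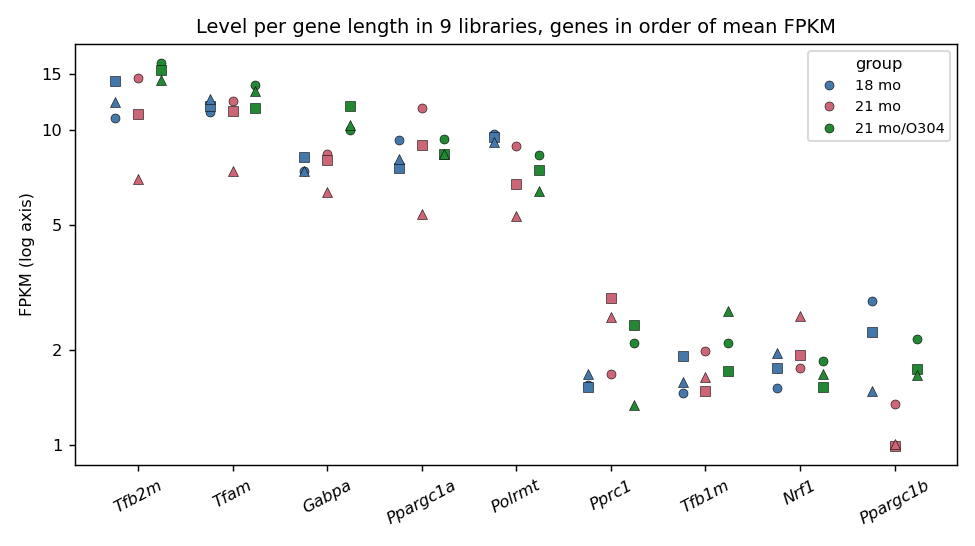
FPKM of the 9 genes in each of 9 kidney libraries on a log axis, with genes in order of their mean and 1 point per library, coloured by group. The first 5 genes lie between 5.32 and 16.2 FPKM and the last 4 between 0.995 and 2.92 FPKM, with no library in between.

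The order within the abundant class differed between the groups. In the 18 mo group it ran Tfb2m (12.4 FPKM), Tfam (11.9), Polrmt (9.40), Ppargc1a (8.29) and Gabpa (7.64), and the ranges of Tfam and Polrmt did not overlap. In the 21 mo group Polrmt was the last of the 5 at 6.97 FPKM, behind Ppargc1a at 8.68 and Gabpa at 7.57, although all of these neighbours overlapped in range. In the 21 mo/O304 group the order was Tfb2m (15.3), Tfam (12.9), Gabpa (10.7), Ppargc1a (8.67) and Polrmt (7.37). There, Gabpa stood above Ppargc1a and Ppargc1a above Polrmt without overlap. Ppargc1b was the first of the scarce genes at 18 mo (2.21 FPKM) and the last at 21 mo (1.12 FPKM), where its range lay below that of Tfb1m.

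None of the 9 genes passed the test across all genes in any of the 3 comparisons (edgeR quasi-likelihood test, adjusted p under 0.05). In the comparison of 21 mo with 18 mo, 0 of 9 passed, where 0.0189% of the 15902 genes tested, or 3 genes, did. In that of 21 mo/O304 with 21 mo, 0 of 9 passed, where the share of all genes was 0%. In that of 21 mo/O304 with 18 mo the numbers were again 0 of 9 and 0%. Differences are therefore described by the libraries' values, the size of the difference with its standard error (SE), and whether the groups overlap. Folds are log2 fold changes from edgeR. The first comparison addresses the changes between 18 and 21 months of age in nephrectomized mice and the second the effect of O304 over the same weeks. Both use the libraries of the 21 mo group, so a library of that group that is low in a gene moves the difference down in the first comparison and up in the second.

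Between 21 mo and 18 mo, 4 of the 9 genes were higher and 5 lower, with a median log2 difference of -0.0098, beside 0.034 over all genes tested. The libraries of the groups did not overlap for Ppargc1b, Pprc1 and Polrmt, which is 3 of 9 genes, against 28.8% of all genes. The same 3 had an unadjusted p under 0.05 in edgeR, against 26.1% of all genes. Between 21 mo/O304 and 21 mo, 6 were higher and 3 lower, with a median of 0.31 beside -0.019 over all genes. Ppargc1b and Gabpa, 2 of 9 genes, did not overlap, against 21.3% of all genes, and the same 2 had an unadjusted p under 0.05, against 20.7%. Between 21 mo/O304 and 18 mo, 6 were higher and 3 lower, with a median of 0.11 beside 0.0028 over all genes. Gabpa, Tfb2m and Polrmt, 3 of 9, did not overlap, against 26.5% of all genes, and 1 gene, Gabpa, had an unadjusted p under 0.05, against 9.66%. With so few members, none of these shares stands apart from that of all genes, and the differences are described gene by gene.

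**Figure D2:**
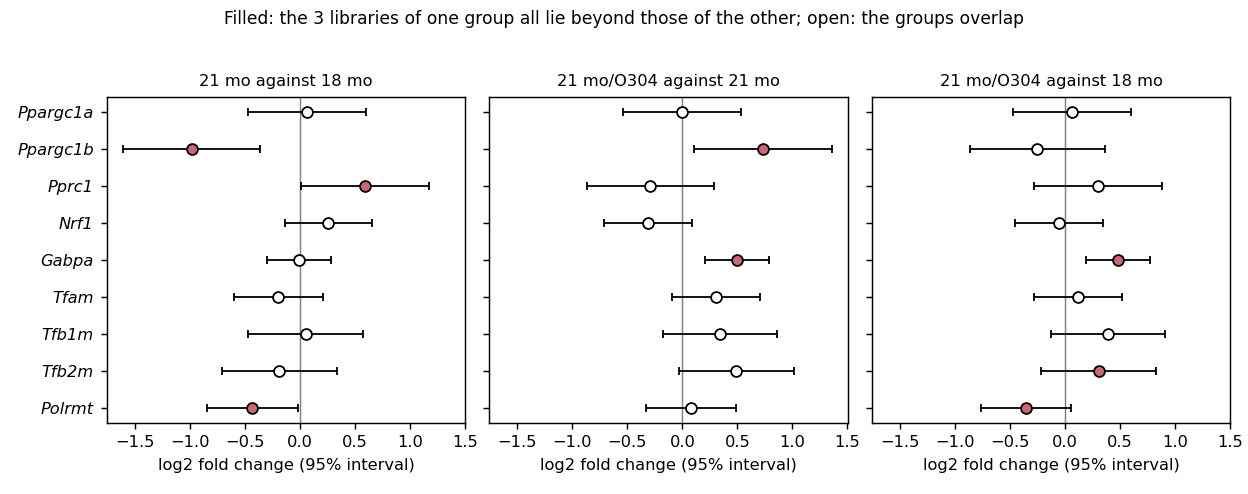
Log2 fold change of each gene from edgeR in the 3 comparisons, with bars for the 95% interval. Filled points are genes whose 3 libraries in one group all lie beyond those of the other, which holds for 3, 2 and 3 of the 9 genes, and Gabpa is filled in both comparisons of the 21 mo/O304 group.

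Among the coactivators, Ppargc1a overlapped between all 3 groups, while Ppargc1b was lowest in every library of the 21 mo group. Ppargc1a, on the reverse strand of chr5 at 51454250 to 51567726, codes for PGC-1α, the most studied member of the family. Its model in the RefSeq annotation runs on to 52115853, 548127 bases further, and reads that lie only in that stretch were not counted. Its level was 63.8, 50.5 and 54.6 CPM in the 18 mo libraries (replicates 1 to 3, as in all lists that follow), 79.3, 60.8 and 37.0 at 21 mo, and 63.3, 56.7 and 56.6 under O304. The highest and the lowest of all 9 libraries were thus both in the 21 mo group, and the 18 mo and 21 mo/O304 libraries lay between them. The means were 56.3 ± 6.79 CPM (SD, n = 3), 59.1 ± 21.2 and 58.9 ± 3.86. Between 21 mo and 18 mo the log2 difference was 0.068 (SE 0.238, 95% interval -0.47 to 0.61, adjusted p = 0.877 in edgeR). Between 21 mo/O304 and 21 mo it was -0.0036 (SE 0.238, 95% interval -0.54 to 0.53, adjusted p = 0.994 in edgeR). The means of the 3 groups were thus close, but the interval around O304 against saline still spans differences of up to 0.53 in either direction, and the sign turned with the choice of library. Without replicate 1 of the 21 mo group the difference between 21 mo and 18 mo was -0.19, and without replicate 3 it was 0.30. Within each group Ppargc1a followed the library order of the summed thick limb, distal tubule and collecting duct markers. This match was not planned in advance, and under O304 replicates 2 and 3 were nearly equal in Ppargc1a. By the mean log2 level of the same markers the order held at 21 mo only. That mean was 0.13, 0.017 and -0.15 at 18 mo and 0.20, -0.42 and -0.36 under O304, relative to the 18 mo mean. The part of cell composition was not tested.

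Ppargc1b, at chr18 61298136 to 61400431 on the reverse strand, codes for PGC-1β, the closest relative of PGC-1α. It measured 11.9, 9.23 and 6.10 CPM at 18 mo, 5.55, 4.09 and 4.16 CPM at 21 mo, and 8.89, 7.14 and 6.87 CPM under O304. All 3 libraries of the 21 mo group lay below all 6 others, and the O304 libraries lay within the range of the 18 mo group. Its mean was 9.09 ± 2.92 CPM (SD, n = 3) at 18 mo, 4.60 ± 0.821 at 21 mo and 7.63 ± 1.09 under O304. The log2 difference was -0.98 for 21 mo against 18 mo (SE 0.276, 95% interval -1.61 to -0.36, adjusted p = 0.0858 in edgeR). It was 0.73 for 21 mo/O304 against 21 mo (SE 0.276, 95% interval 0.11 to 1.36, adjusted p = 0.201 in edgeR) and -0.25 for 21 mo/O304 against 18 mo (SE 0.272, adjusted p = 0.816 in edgeR). This was the largest difference among the 9 genes in both comparisons of the 21 mo group. An exact permutation test of 3 against 3 libraries gave p = 0.1 in each, which is the smallest p it can give. The gene rests on few reads, with 72 to 193 counts per library, and counting error alone gives a coefficient of variation of 11.8% at the lowest count. In replicate 1 of the 21 mo group the summed proximal tubule markers lay within the range of the 18 mo group. The markers taken singly did not all do so. Slc34a1, Slc5a2 and Slc22a6 were below that range, at 3506, 189 and 889 CPM against 4587, 244 and 1025 or more. Cubn was above it, at 696 against at most 482, as were Lrp2, Aqp1 and Slc27a2. In that library Ppargc1b was at 5.55 CPM, below every library of the 18 mo group. It was at 4.09 and 4.16 in replicates 2 and 3, where the summed markers were lower. The part of cell composition in the difference was not tested. Once saline replicate 3, with the fewest proximal tubule markers, was left out, the log2 difference was -0.93 against 18 mo and 0.67 for O304 against saline.

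Because the groups stood in a different order for Ppargc1a and Ppargc1b, their ratio within a library was computed, a choice made after the levels had been seen. The other ratios given below were not planned in advance either. All ratios rest on the same levels as the single genes and are no separate evidence. The FPKM of Ppargc1a was 3.23, 3.31 and 5.41 times that of Ppargc1b in the 18 mo group. The ratio was 8.66, 9.01 and 5.38 at 21 mo and 4.31, 4.80 and 4.99 under O304. All 3 ratios under O304 lay below those of the 21 mo group (exact permutation p = 0.1, adjusted p = 0.257 over 18 tests of 6 ratios), while those of the 21 mo and 18 mo groups overlapped.

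Pprc1, at chr19 46044886 to 46072915 on the forward strand, codes for PRC, which shares its DNA-binding partners with PGC-1α and is known to respond rapidly to serum. Its level was 12.1, 11.7 and 13.0 CPM at 18 mo, 13.0, 22.6 and 19.9 at 21 mo, and 16.3, 18.6 and 10.4 under O304. Replicates 2 and 3 of the 21 mo group were high, while replicate 1 exceeded the highest 18 mo library by less than 1 count was worth. The log2 difference was 0.59 for 21 mo against 18 mo (SE 0.256, 95% interval 0.014 to 1.17, adjusted p = 0.184 in edgeR) and -0.29 for 21 mo/O304 against 21 mo (SE 0.255, adjusted p = 0.505 in edgeR). The O304 libraries spanned from below the 18 mo group to above it. In the 21 mo group the higher values of Pprc1 were in the libraries with fewer proximal tubule markers and more fibroblast and leukocyte markers, and the part of cell composition in the difference was not tested. With 1 library left out, the value for 21 mo against 18 mo was 0.41 without saline replicate 2 and 0.81 without saline replicate 1, and that for O304 against 21 mo was -0.12 without saline replicate 2 and -0.090 without O304 replicate 3. Compared with 18 mo, the O304 group differed by 0.30 (SE 0.257, adjusted p = 0.757 in edgeR), and by 0.13 without O304 replicate 2. Pprc1 overlaps Ldb1 on the opposite strand, which had 514 to 1201 counts per library, and since the kit does not mark strand, reads in the shared stretch cannot be told apart.

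Of the nuclear transcription factors, Gabpa set the O304 libraries apart from both other groups and Nrf1 did not. Gabpa, at chr16 84834925 to 84863779 on the forward strand, codes for the DNA-binding α subunit of NRF-2, an Ets factor that is unrelated to the stress-response factor of the same abbreviation coded by Nfe2l2. It measured 43.9, 47.2 and 43.2 CPM at 18 mo, 49.0, 46.9 and 37.5 CPM at 21 mo, and 58.2, 69.3 and 60.4 CPM under O304. The lowest library of the 21 mo/O304 group was thus above the highest of the 6 others. The means were 44.7 ± 2.16 CPM (SD, n = 3), 44.5 ± 6.10 and 62.6 ± 5.90. The log2 difference was 0.50 for 21 mo/O304 against 21 mo (SE 0.129, 95% interval 0.20 to 0.79, adjusted p = 0.175 in edgeR) and 0.49 for 21 mo/O304 against 18 mo (SE 0.129, 95% interval 0.19 to 0.78, adjusted p = 0.337 in edgeR). It was -0.0098 for 21 mo against 18 mo (SE 0.129, 95% interval -0.30 to 0.28, adjusted p = 0.968 in edgeR). An exact permutation test gave p = 0.1, its smallest value, for O304 against each other group. With saline replicate 3 left out, the log2 difference between O304 and saline was 0.40, and with O304 replicate 2 left out, the highest library, it was 0.40 as well.

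Markers of other cells are given beside Gabpa, since they too differed between the groups. Adipocyte markers, 9 genes of which 5 passed the filter, summed to 149.9, 10.3 and 122.9 CPM in O304 replicates 1 to 3 and to between 0.123 and 9.32 CPM in the 6 other libraries. Gabpa was highest in replicate 2, which had the fewest adipocyte markers of that group, the highest endothelial sum of all 9 libraries (411 CPM) and the highest leukocyte sum of that group (1738 CPM). All 5 endothelial markers were higher under O304 than in either other group, 2 of them with an unadjusted p under 0.05 in edgeR against 21 mo and 0 against 18 mo. The part of these cells in the Gabpa difference was not tested. The defining genes of brown fat, in which this pathway is most active, were at or near 0, with at most 6 counts of Ucp1, 14 of Cidea and 3 of Elovl3 in any library. In saline replicate 1, where the proximal tubule markers summed to 15470 CPM against 15749 or more under O304, Gabpa was at 49.0 CPM against 58.2 or more under O304. The part of proximal tubule cells in the Gabpa difference was not tested either. Gabpa also overlaps Atp5j on the opposite strand, which had 3203 to 5037 counts per library, beside 709 to 1165 for Gabpa, and since the kit does not mark strand, reads in the shared stretch cannot be told apart. How many of the reads counted for Gabpa fall in that stretch was not measured.

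Nrf1, at chr6 30047988 to 30153458 on the forward strand, codes for nuclear respiratory factor 1. Its level was 16.3, 18.4 and 20.8 CPM at 18 mo, 18.6, 20.4 and 27.4 at 21 mo, and 19.6, 16.1 and 17.7 under O304. Replicate 3 of the 21 mo group was the highest of all 9 libraries, and otherwise the groups ran through each other. Compared with 18 mo, the log2 difference at 21 mo was 0.26 (SE 0.175, adjusted p = 0.368 in edgeR) and -0.31 for 21 mo/O304 against 21 mo (SE 0.175, adjusted p = 0.322 in edgeR). Without replicate 3 of the 21 mo group these were 0.057 and -0.12. The library with the highest Nrf1 was thus also the one with the lowest Gabpa. Within a library the FPKM of Gabpa was 4.87, 4.64 and 3.75 times that of Nrf1 at 18 mo, 4.77, 4.16 and 2.48 times at 21 mo and 5.38, 7.77 and 6.16 times under O304. The ratios under O304 lay above those of both other groups (exact permutation p = 0.1 in each, adjusted p = 0.257 over the 18 tests).

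**Figure D3:**
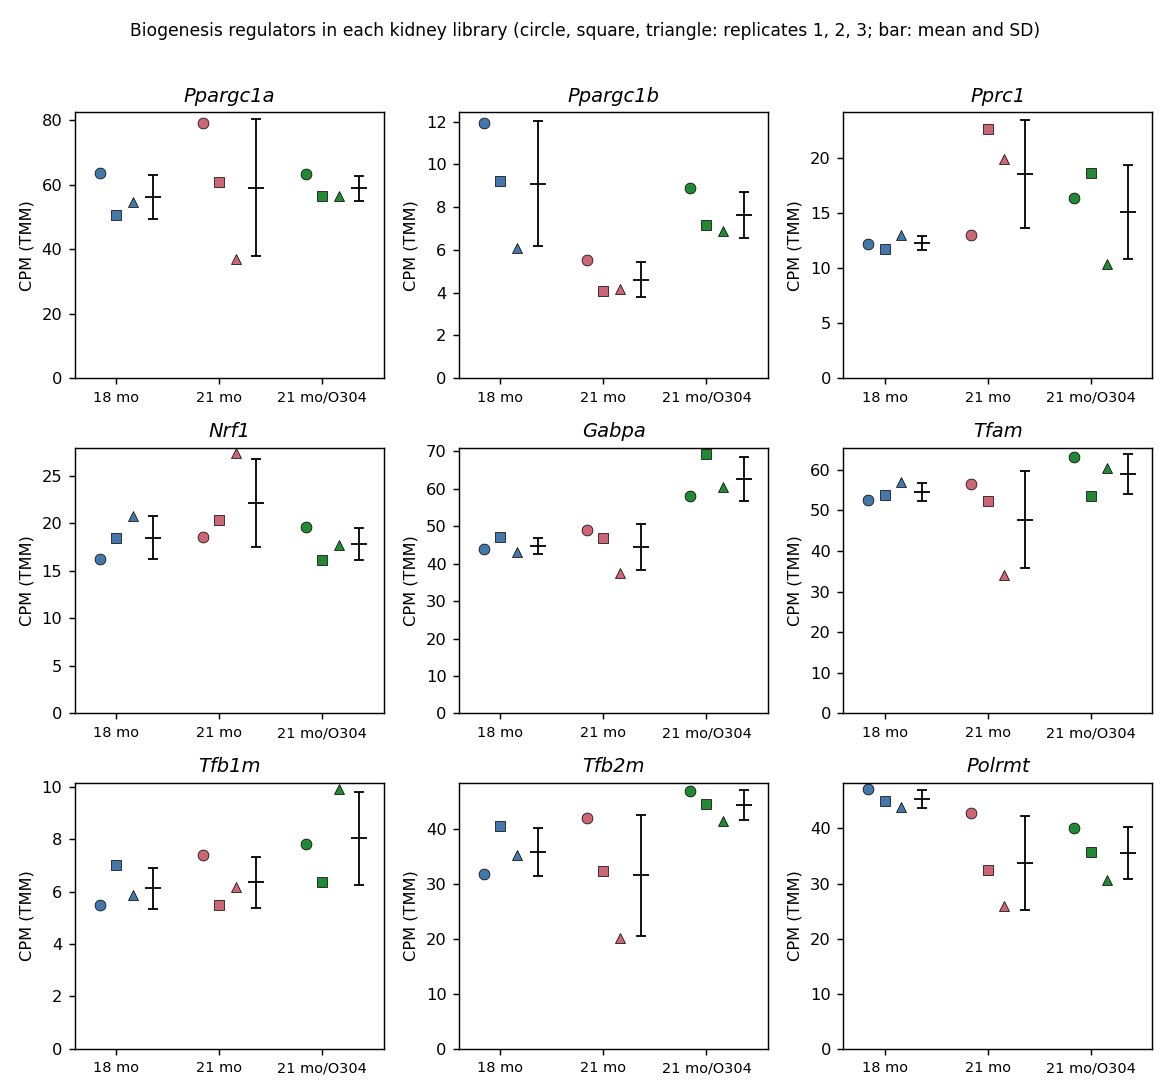
TMM-normalized CPM of each gene in each library, with circles, squares and triangles for replicates 1, 2 and 3, and bars for the mean and SD of 3 libraries. All 3 libraries of the 21 mo group lie below the others for Ppargc1b, all 3 of the 21 mo/O304 group lie above the others for Gabpa, and the 21 mo group spreads most for Ppargc1a, Tfam, Tfb2m and Polrmt, with replicate 3 lowest.

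The genes of the mitochondrial transcription machinery did not move together. Polrmt, at chr10 79736123 to 79746581 on the reverse strand, codes for the single-subunit polymerase that transcribes mitochondrial DNA and makes primers for its replication. It measured 47.1, 45.0 and 44.0 CPM at 18 mo, 42.8, 32.4 and 25.9 CPM at 21 mo, and 40.1, 35.8 and 30.7 CPM under O304. All 6 libraries of 21-month-old mice lay below all 3 of the 18 mo group, and the 21 mo and 21 mo/O304 libraries overlapped. Saline replicate 1 was close to the 18 mo range, at 42.8 against 44.0 CPM or more. Counting error alone gives Polrmt a coefficient of variation of 3.59% to 4.55%. The means were 45.4 ± 1.62 CPM (SD, n = 3), 33.7 ± 8.54 and 35.5 ± 4.69. The log2 difference was -0.43 for 21 mo against 18 mo (SE 0.181, 95% interval -0.84 to -0.020, adjusted p = 0.177 in edgeR) and -0.35 for 21 mo/O304 against 18 mo (SE 0.181, 95% interval -0.76 to 0.057, adjusted p = 0.573 in edgeR). Between 21 mo/O304 and 21 mo it was 0.077 (SE 0.181, adjusted p = 0.814 in edgeR). Without replicate 3 of the 21 mo group the first of these was -0.29, and the last turned to -0.074. In the 21 mo group Polrmt followed the order of the proximal tubule markers. In the O304 group, where these markers lay between 15749 and 16395 CPM, it was below the 18 mo range too, and the part of cell composition in either difference was not tested.

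Tfam, at chr10 71225464 to 71238280 on the reverse strand, codes for the protein that packages mitochondrial DNA and bends its promoters. Its level was 52.6, 53.7 and 57.0 CPM in the 18 mo group, 56.5, 52.4 and 34.1 at 21 mo, and 63.0, 53.5 and 60.3 under O304. A single library, replicate 3 of the 21 mo group, stood low and the other 8 lay between 52.4 and 63.0 CPM. The log2 difference was -0.19 for 21 mo against 18 mo (SE 0.177, 95% interval -0.59 to 0.21, adjusted p = 0.503 in edgeR) and 0.31 for 21 mo/O304 against 21 mo (SE 0.177, 95% interval -0.093 to 0.71, adjusted p = 0.330 in edgeR). Without that library they were -0.018 and 0.12, so most of both differences rested on it.

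Tfb2m, at chr1 179528055 to 179546267 on the reverse strand, codes for the factor that opens the mitochondrial promoter for POLRMT. It was measured at 31.7, 40.5 and 35.2 CPM at 18 mo, 42.0, 32.4 and 20.2 CPM at 21 mo, and 46.9, 44.5 and 41.5 CPM under O304. The O304 libraries were all above the 18 mo range, and 1 library of the 21 mo group, replicate 1, exceeded the lowest of them. The means were 35.8 ± 4.41 CPM (SD, n = 3), 31.5 ± 10.9 and 44.3 ± 2.71. O304 libraries differed from the 21 mo group by 0.49 on the log2 scale (SE 0.232, 95% interval -0.032 to 1.02, adjusted p = 0.259 in edgeR), and 0.26 without replicate 3 of the 21 mo group. It was 0.31 for 21 mo/O304 against 18 mo (SE 0.231, 95% interval -0.22 to 0.83, adjusted p = 0.711 in edgeR) and -0.19 for 21 mo against 18 mo (SE 0.232, adjusted p = 0.631 in edgeR).

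The ratio of Tfb2m to Polrmt set the O304 libraries apart from both other groups, which neither gene did alone. This pair was not planned in advance, and under O304 Tfb2m was already above and Polrmt below the 18 mo range. Within a library the FPKM of Tfb2m was 1.12, 1.504 and 1.34 times that of Polrmt at 18 mo, 1.64, 1.67 and 1.30 times at 21 mo, and 1.95, 2.08 and 2.26 times under O304. The ratios of the 21 mo/O304 group lay above all 6 others, and those of the 18 mo and 21 mo groups overlapped. Their means were 1.32 ± 0.190 (SD, n = 3), 1.54 ± 0.202 and 2.10 ± 0.151. An exact permutation test gave p = 0.1 for O304 against each of the other groups (adjusted p = 0.257 over the 18 tests). The ratio of Tfam to Polrmt was 1.18, 1.26 and 1.37 at 18 mo, 1.39, 1.71 and 1.39 at 21 mo, and 1.66, 1.58 and 2.07 under O304. Both groups of 21-month-old mice lay above the 18 mo group (exact permutation p = 0.1 in each) and overlapped with each other. The ratios of Tfb2m to Tfam and of Tfb2m to Tfb1m overlapped between the groups in every comparison.

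**Figure D4:**
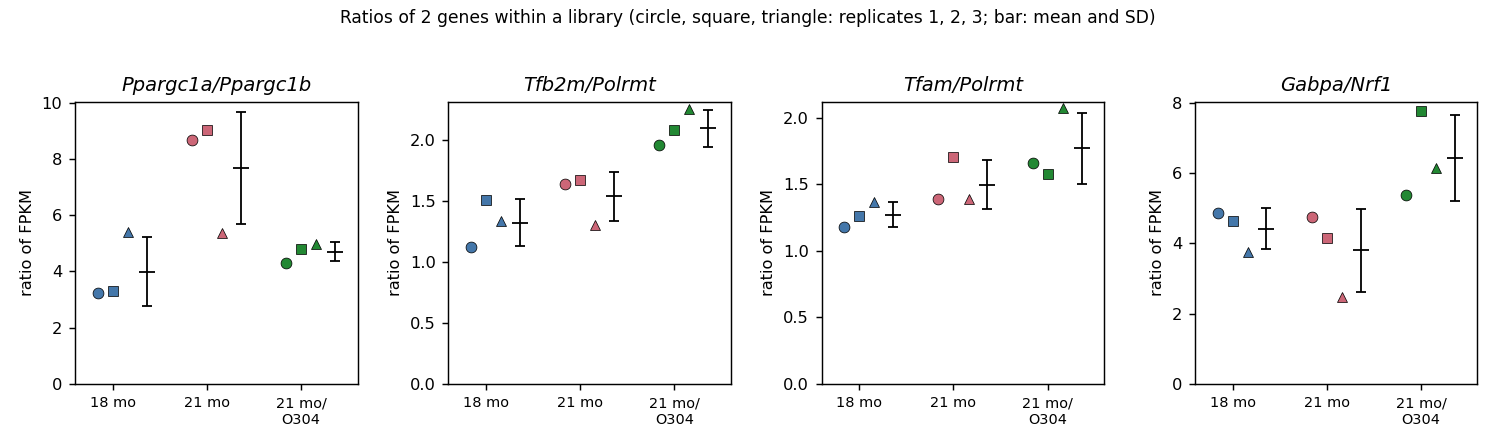
Ratio of the FPKM of 2 genes within each library for 4 pairs, with circles, squares and triangles for replicates 1, 2 and 3, and bars for the mean and SD of 3 libraries. The ratio of Tfb2m to Polrmt lies between 1.12 and 1.67 in the 18 mo and 21 mo libraries and between 1.95 and 2.26 under O304, and that of Gabpa to Nrf1 is also highest under O304.

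Tfb1m, at chr17 3519256 to 3557781 on the reverse strand, codes for the methyltransferase of the small mitochondrial ribosomal RNA. Its level was 5.51, 7.02 and 5.88 CPM at 18 mo, 7.42, 5.51 and 6.18 at 21 mo, and 7.84, 6.37 and 9.92 under O304. The groups overlapped in all 3 comparisons, with replicate 3 of the 21 mo/O304 group the highest. Log2 differences were 0.053 for 21 mo against 18 mo (SE 0.230, adjusted p = 0.901 in edgeR), 0.34 for 21 mo/O304 against 21 mo (SE 0.229, adjusted p = 0.396 in edgeR) and 0.39 for 21 mo/O304 against 18 mo (SE 0.229, adjusted p = 0.626 in edgeR). Without O304 replicate 3 the last 2 of these were 0.15 and 0.23, and the first turned to -0.053 without saline replicate 1. The gene had 89 to 156 counts per library, which gives a coefficient of variation of up to 10.6% from counting alone. Tiam2 and Cldn20 overlap it on the opposite strand with 170 to 340 counts between them, and reads in the shared stretches cannot be told apart. Ppargc1b and Nrf1 overlap only short RNA genes with at most 3 counts in any library, Ppargc1a and Tfb2m only unconfirmed models or a pseudogene with at most 10, and Tfam and Polrmt overlap no gene.

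Seen by library, replicate 3 of the 21 mo group held the lowest level of 5 of the 9 genes, Ppargc1a, Gabpa, Tfam, Tfb2m and Polrmt. In that library 6 members were below the range of the 18 mo group and 2, Pprc1 and Nrf1, above it, where 40.5% of all genes were below and 41.3% above. Replicate 1 of the same group gave another picture, with 5 members above the 18 mo range and 2, Ppargc1b and Polrmt, below it, where 31.1% of all genes were above and 33.4% below. In replicate 2, 3 members were below and 1 above, against 36.1% and 37.3% of all genes. The O304 libraries were more alike, with 5, 3 and 4 members above the 18 mo range and 1, 2 and 2 below it, while 30.0% to 32.3% of all genes were above it and 30.4% to 32.5% below. Gabpa and Tfb2m were above the range in all 3 O304 libraries and Polrmt below it in all 3. The biological coefficient of variation estimated within each group was 18.1% at 18 mo, 44.1% at 21 mo and 20.6% under O304.

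How many of the 9 genes were called differed between the tools and with the libraries included, and the cause was not tested. DESeq2 called Ppargc1b for 21 mo against 18 mo (log2 difference -0.99, adjusted p = 0.0178), where it called 11.7% of the 17227 genes it tested. It called Gabpa for 21 mo/O304 against 21 mo (0.50, adjusted p = 0.0482), where it called 5.2% of genes. limma voom with a weight for the quality of each library called Ppargc1b, Pprc1 and Polrmt in the first comparison, where it called 52.9% of all genes. It called Ppargc1b, Pprc1, Gabpa, Tfb1m and Tfb2m in the second, where it called 41.1%, and Gabpa alone for 21 mo/O304 against 18 mo (0.50, adjusted p = 0.0292), where it called 2.61%. Once saline replicate 1 was left out, edgeR called Ppargc1b (-1.12, adjusted p = 0.0304), Pprc1 (0.81, adjusted p = 0.0369) and Polrmt (-0.62, adjusted p = 0.0231) in the first comparison, beside 25.4% of 16463 genes. In the second it then called Gabpa (0.56, adjusted p = 0.0241) and Tfb2m (0.75, adjusted p = 0.0344), beside 23.1% of genes. The share of all genes called thus ranged from 2.61% to 52.9% where a member was called.

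The genes that work with the members were read from fixed lists, and no gene of any list passed an adjusted p of 0.05 in edgeR on all 9 libraries in any comparison. The counts at an unadjusted p under 0.05 are to be read against the 26.1%, 20.7% and 9.66% of all genes in the 3 comparisons, in either direction. Without saline replicate 1, 4 partners, 5 genes of mitochondrial DNA maintenance, 8 target genes and 4 mitochondrial mRNAs passed an adjusted p of 0.05 in the first comparison and 2, 6, 5 and 4 in the second, beside the 25.4% and 23.1% of all genes given above. Of 17 partners, regulators and related receptors of the PGC-1 family, 8 were higher and 9 lower at 21 mo than at 18 mo (median log2 difference -0.028), with 3 higher and 1 lower at an unadjusted p under 0.05. Under O304, against 21 mo, it was 9 higher and 8 lower (median 0.071), with 2 in each direction at an unadjusted p under 0.05, and for 21 mo/O304 against 18 mo 12 and 5 (median 0.10), with 1 in each direction. Esrra, the oestrogen-related receptor α through which PGC-1α and PGC-1β act on genes of oxidative phosphorylation, differed more between 21 mo and 18 mo than any of the 9 members. It measured 216, 233 and 214 CPM at 18 mo, 123, 91.4 and 70.0 CPM at 21 mo, and 144, 136 and 139 CPM under O304. The 3 groups did not overlap, with the O304 libraries between the others. Its log2 difference was -1.22 for 21 mo against 18 mo (SE 0.193, adjusted p = 0.0626 in edgeR), 0.56 for 21 mo/O304 against 21 mo (SE 0.191, adjusted p = 0.187) and -0.66 for 21 mo/O304 against 18 mo (SE 0.191, adjusted p = 0.345). In replicate 1 of the 21 mo group the summed proximal tubule markers were in the 18 mo range, but several of the single markers were not. The part of cell composition in the differences of Esrra was not tested. In that library Esrra was at 123 CPM. Its difference from 18 mo was -1.44 without saline replicate 1 (adjusted p = 0.00286 in edgeR) and -1.06 without saline replicate 3 (adjusted p = 0.0376), where edgeR called 0.806% of all genes. Its difference under O304 from 21 mo was 0.78 (adjusted p = 0.0114 in edgeR) and 0.39 (adjusted p = 0.299) without the same libraries. Without saline replicate 3 the list had 13 genes higher and 4 lower at 21 mo than at 18 mo (median 0.12).

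Other partners ran the opposite way. Nfe2l2, which codes for the stress-response factor also called NRF2, was between 86.4 and 91.7 CPM at 18 mo, between 114.7 and 167 at 21 mo and between 96.4 and 109 under O304. Its log2 difference was 0.74 for 21 mo against 18 mo (SE 0.155, adjusted p = 0.0626 in edgeR) and -0.54 for 21 mo/O304 against 21 mo (SE 0.155, adjusted p = 0.175). Nrip1, which codes for the corepressor RIP140 of the same nuclear receptors, was at 32.5 to 40.0 CPM at 18 mo, 45.9 to 54.1 at 21 mo and 38.0 to 42.8 under O304, a log2 difference of 0.45 (SE 0.118, adjusted p = 0.0810 in edgeR) and then -0.29 (SE 0.118, adjusted p = 0.219). Neither overlapped between the groups in these 2 comparisons. Without saline replicate 3 the differences were 0.63 and -0.44 for Nfe2l2 and 0.43 and -0.28 for Nrip1. Creb1, a known activator of Ppargc1a transcription, was above the 18 mo range in all 6 libraries of 21-month-old mice, at 34.0 CPM or more against at most 29.3, while Ppargc1a itself was not. Sirt1, the deacetylase of PGC-1α, was at 21.5 to 23.3 CPM at 18 mo and 25.1 to 28.2 CPM under O304 (log2 difference 0.28, adjusted p = 0.521 in edgeR).

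Of 22 further genes that maintain and express mitochondrial DNA, 7 were higher and 15 lower at 21 mo than at 18 mo (median log2 difference -0.13), and 19 were higher and 3 lower under O304 than at 21 mo (median 0.20). Against 18 mo, the O304 group had 14 higher and 8 lower (median 0.097). At an unadjusted p under 0.05 there were 4 lower and 0 higher in the first comparison, 5 higher and 0 lower in the second and 2 higher in the third. Tefm, the elongation factor of POLRMT, was at 13.6 to 18.6 CPM at 18 mo, 10.4 to 13.5 at 21 mo and 16.1 to 21.4 under O304, with log2 differences of -0.49 (SE 0.186, adjusted p = 0.143 in edgeR) and 0.68 (SE 0.186, adjusted p = 0.175). Twnk, the helicase of mitochondrial DNA replication, was at 29.3 to 31.1, 14.0 to 26.1 and 31.7 to 39.1 CPM in the same groups, with log2 differences of -0.49 (SE 0.214, adjusted p = 0.185 in edgeR) and 0.74 (SE 0.214, adjusted p = 0.175). Both genes thus had a 21 mo group below the 2 others without overlap, as Ppargc1b did. For Tefm the gap to the 18 mo group was narrow, at 13.5 against 13.6 CPM. Without saline replicate 3 the differences were -0.44 and 0.63 for Tefm and -0.27 and 0.51 for Twnk, and the list had 10 genes higher and 12 lower than at 18 mo (median -0.099) and 19 and 3 under O304 (median 0.16). Lonp1, a protease that degrades TFAM, was at 197 to 212 CPM at 18 mo, 75.7 to 181 at 21 mo (log2 difference -0.72, adjusted p = 0.138 in edgeR) and 169 to 186 under O304. Top1mt, the mitochondrial topoisomerase, was at 30.1 to 35.4, 21.2 to 29.1 and 27.4 to 33.8 CPM (log2 difference -0.40 for 21 mo against 18 mo, adjusted p = 0.141 in edgeR). Mterf4, which helps to build the mitochondrial ribosome, was at 11.9 to 13.2 CPM at 18 mo, at most 13.6 at 21 mo and 14.3 to 17.7 under O304 (log2 difference 0.34 against 21 mo, adjusted p = 0.223, and 0.38 against 18 mo, adjusted p = 0.458 in edgeR). Mtpap, the mitochondrial poly(A) polymerase, and Mgme1, a nuclease of mitochondrial DNA, came next against 18 mo with log2 differences of 0.40 and 0.48 (adjusted p = 0.483 and 0.626 in edgeR).

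Of 14 textbook target genes of NRF-1, NRF-2 or PGC-1, 13 were tested, and Cpt1b did not pass the filter. At 21 mo 2 were higher and 11 lower than at 18 mo (median log2 difference -0.59), with 1 higher and 4 lower at an unadjusted p under 0.05. Under O304 11 were higher and 2 lower than at 21 mo (median 0.35), with 1 higher and 0 lower at that p, and 3 were higher and 10 lower than at 18 mo (median -0.13), with 1 in each direction. Cox5b, a subunit of cytochrome c oxidase, was at 296 to 396 CPM at 18 mo, 138 to 192 at 21 mo and 173 to 239 under O304, so that neither group of 21-month-old mice reached the 18 mo range (log2 differences -1.12, SE 0.201, adjusted p = 0.0626, and -0.76, SE 0.199, adjusted p = 0.337 in edgeR). Cycs, which codes for cytochrome c, was at 272 to 414, 130 to 252 and 287 to 368 CPM (log2 difference -0.84, SE 0.262, adjusted p = 0.10, and 0.72 for O304 against 21 mo, SE 0.262, adjusted p = 0.198 in edgeR). Sod2, the superoxide dismutase of the matrix, was at 329 to 381, 116 to 342 and 333 to 355 CPM and overlapped between O304 and 21 mo (log2 difference 0.66, adjusted p = 0.278 in edgeR), as did Cox7c, a small subunit of cytochrome c oxidase (0.37, adjusted p = 0.298). Tomm20, the import receptor of the outer membrane, was at 221 to 229 CPM at 18 mo and 174 to 202 under O304 (log2 difference -0.26 against 18 mo, adjusted p = 0.539 in edgeR). The 21 mo libraries were below the 18 mo range too, at -0.22, -0.34 and -0.17 log2 units from the 18 mo mean. Those under O304 were at -0.37, -0.27 and -0.15, so they overlapped with 21 mo. With saline replicates 1, 2 or 3 left out, O304 against 21 mo gave -0.014, -0.056 and 0.027. Pdk4, a kinase that shuts pyruvate out of the citric acid cycle, ran the opposite way, at 15.4 to 25.2 CPM at 18 mo and 59.8 to 68.9 under O304 (log2 difference 1.72, SE 0.493, adjusted p = 0.345 in edgeR), and at 100.7, 85.3 and 19.9 in the 21 mo libraries, the last of which lay within the 18 mo range. The sum of the target genes stood at 7517, 4964 and 3865 CPM in the 21 mo libraries, the order of the proximal tubule markers, and the part of cell composition in these differences was not tested. Without saline replicate 3 the medians were -0.35 and 0.21, and Cox5b differed from 18 mo by -1.07 and Cycs by -0.64.

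**Figure D5:**
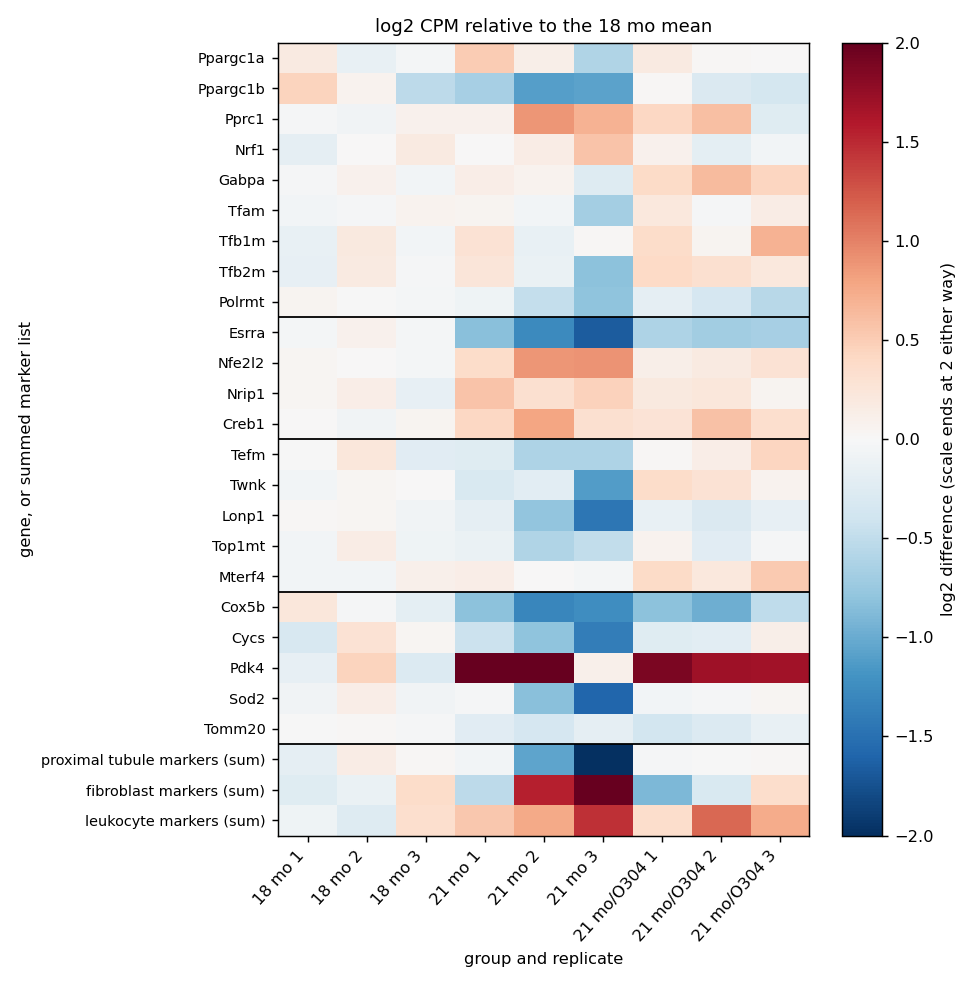
Log2 CPM of the 9 genes, of genes from the lists of partners, of mitochondrial DNA maintenance and of target genes, and of summed marker lists, as a difference from the mean of the 18 mo group in each library, with blue for lower and red for higher. Ppargc1b, Esrra and Cox5b are lower in all 3 libraries of the 21 mo group. In its replicate 1 the summed proximal tubule markers, at 15470 CPM, are within the 18 mo range. Taken singly, Slc34a1, Slc5a2 and Slc22a6 are below that range there, and Lrp2, Cubn, Aqp1 and Slc27a2 above it. The part of cell composition was not tested.

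The 13 mRNAs coded by mitochondrial DNA, which TFAM, TFB2M and POLRMT transcribe, are read from the same 2 promoters as long precursors. At 21 mo 1 was higher and 12 lower than at 18 mo (median log2 difference -0.33), under O304 13 were higher and 0 lower than at 21 mo (median 0.55), and against 18 mo 9 were higher and 4 lower (median 0.21). At an unadjusted p under 0.05 there were 3 lower in the first comparison, 1 higher in the second, and 1 higher and 2 lower in the third. The largest differences were those of mt-Atp8 (-3.26 for 21 mo against 18 mo, SE 0.577, adjusted p = 0.0626 in edgeR) and mt-Co3 (-1.20, SE 0.196, adjusted p = 0.0626), followed by mt-Atp6 (-0.97, SE 0.290, adjusted p = 0.0933). These lie in a part of mitochondrial DNA of which the nucleus carries a near-identical copy, so their counts are uncertain. In the second comparison the smallest p was that of mt-Nd3 (0.59, SE 0.217, adjusted p = 0.197 in edgeR), and the next smallest were those of mt-Atp6 and mt-Nd4l, all within the same part. For the 5 mRNAs outside it, mt-Nd1, mt-Nd2, mt-Nd5, mt-Nd6 and mt-Cytb, the median log2 difference was -0.11, 0.45 and 0.29 in the 3 comparisons, and 0 of 5 had an unadjusted p under 0.05 in any of them. Without saline replicate 3 the first 2 medians were 0.14 and 0.16 and 4 of the 5 were higher at 21 mo than at 18 mo, and over all 13 mRNAs they were -0.046 and 0.24. Their sum was 63026, 43799 and 25950 CPM in the 21 mo libraries, 48519 to 52581 at 18 mo and 55687 to 62501 under O304. Replicate 1 of the 21 mo group was thus the highest of all 9 libraries and replicate 3 the lowest, as for Ppargc1a, and the O304 libraries lay above the 18 mo range, as for Tfb2m. Polrmt went the other way, with its O304 libraries below the 18 mo range, and Tfam overlapped between these groups. A link between these levels was not tested.

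Finally, the protein-coding genes with the pattern most like that of Ppargc1a and of Tfam were looked up among 13915 genes, by the root mean square difference of log2 CPM over the 9 libraries after each gene was centred on its mean. For Ppargc1a they were Lrba (0.0949), Xpo7 (0.101), 4930402H24Rik (0.104), Shmt1 (0.106) and Ubr2 (0.108), where the median over all genes was 0.417. For Tfam they were Zdhhc6 (0.0507), Tpp1 (0.0571), Wdpcp (0.0657), Atp6v1e1 (0.0667) and Rspry1 (0.0679), with a median of 0.386. No gene of the lists above was among these 10, and the libraries of the 21 mo group, in which both genes vary most, weigh heavily in the measure.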

How the data were processed

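Kidney RNA of 9 mice, each a separate animal and 1 library, was sequenced by the authors as paired ends from a NEBNext Ultra library, a kit that does not mark strand. The counts per gene were deposited by the authors without normalization, and their FPKM values stand beside them. The submitters' processing notes name HISAT2 2.0.5, featureCounts 1.5.0-p3 and DESeq2 1.20.0, and the build is GRCm38. The setting for reads that map to several places is not given in the sources used here. Coordinates are those of the deposited table. Its group means, log2 fold changes and p-values for 2 comparisons were not used.

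Genes were filtered with filterByExpr (minimum count 10, minimum total 15), normalized by TMM and tested with the edgeR 4.0.16 quasi-likelihood test (R 4.3.3) on all 9 libraries with 3 group means, with two-sided p-values and Benjamini-Hochberg adjustment over all 15902 genes. CPM are TMM-normalized, and log2 CPM used a prior count of 2. Single values were compared by a two-sided exact permutation test, whose smallest p with 3 against 3 is 0.1. The tests were tried on simulated data. The members and lists were chosen with earlier results of these data known. Named genes are the members, up to 3 genes per list and comparison with the smallest p, and the 5 genes most like Ppargc1a and Tfam, beside genes that overlap a member, untested list members, brown fat genes and the mitochondrial mRNAs without a nuclear copy. The alternatives were DESeq2 1.42.0, RLE size factors, every gene with at least 1 count, the 6 libraries compared, a replicate block, voom with quality weights (limma 3.58.1), limma-trend on log2(FPKM + 1) and log2(FPKM + 0.1) where the mean FPKM reached 0.5, and leaving out each library.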

Additional observations from a re-analysis of the deposited data

How the results depend on the processing

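Of 459 values of the 9 genes under the alternatives, 415 kept their direction and side of the threshold, 16 newly passed it, 28 changed sign and 0 lost a call, since there was none to lose. The number of all genes called moved far more. For 21 mo against 18 mo it was 3 with edgeR, 2023 with DESeq2, 576 with every gene of at least 1 count, 0 with the 6 libraries compared, 0 with the replicate block, 8409 with voom and quality weights, and 0 to 4186 with 1 library left out. For 21 mo/O304 against 21 mo it was 0 with edgeR, 896 with DESeq2, 17 with every gene, 6528 with voom, and 0 to 3808 with 1 library left out. For 21 mo/O304 against 18 mo it was 0, 118 with DESeq2, 22 with the 6 libraries, 415 with voom, and 0 to 12 with 1 library left out. The highest counts without a library came without replicate 1 of the 21 mo group (4186 and 3808) and, in the third comparison, without its replicate 3 (12), which gave 130 in the first. The cause was not tested. Of the 9 genes, 0 were called with edgeR, and in the 3 comparisons DESeq2 called 1, 1 and 0, voom 3, 5 and 1, and edgeR without 1 library 0 to 3, 0 to 2 and 0.

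The sign turned for small differences. For 21 mo against 18 mo, Gabpa was 0.011 with every gene, 0.015 with the 6 libraries and 0.078 with voom, Tfb1m was -0.13 with voom, and with 1 library left out Gabpa ran from -0.068 to 0.082, Tfb1m from -0.053 to 0.15, Ppargc1a from -0.19 to 0.30 and Tfb2m from -0.43 to 0.037. For 21 mo/O304 against 21 mo, Ppargc1a was 0.042 with the replicate block, 0.053 on log2(FPKM + 1) and 0.065 on log2(FPKM + 0.1), and with 1 library left out it ran from -0.24 to 0.26 and Polrmt from -0.074 to 0.28. For 21 mo/O304 against 18 mo, with 1 library left out, Ppargc1a ran from -0.0078 to 0.16 and Nrf1 from -0.14 to 0.047.

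The labels name nothing that libraries of the same replicate number share, and the samples were not paired. The correlation of same-numbered libraries' deviations ran from -0.13 to 0.175. The highest with a library of another number ran from -0.0946 to 0.202. The same number gave the higher correlation in some cases and not in others, so these values cannot show whether a pairing exists. The replicate block called 0 genes in each comparison. With 3 mice a group, a true difference of the size seen for Gabpa or Ppargc1b can miss the threshold, and the counts of Ppargc1b and Tfb1m are low enough for counting error to add to the spread. The library kit does not mark strand, and Pprc1, Gabpa and Tfb1m overlap genes on the opposite strand. Reads in these stretches cannot be told apart. The overlap was read from the start and end of each gene and not from exons. How many reads fall in these stretches was not measured. Leaving out libraries for the gene lists was added after seeing the data.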
